A study of Mus musculus with 6 samples.

Results

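Collagen genes were taken as the protein-coding mouse genes whose symbol reads Col, a number, the letter a and a number. The rule took in 44 of the 20254 genes measured: 11 fibrillar collagens, 6 chains of the basement membrane collagen type IV, and 27 others. They were measured by RNA sequencing of hearts from adult C57BL/6 mice, 3 labelled Trdn-as KO and 3 WT. In each genotype replicates 1 and 2 were taken at 14 months of age and replicate 3 at 5 months. Trdn-as is a long non-coding RNA named for its place antisense to Trdn, the triadin gene; the labels do not say how the allele was made, in which cells it acts, or whether the mice were littermates.

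Collagens are the main structural proteins of the extracellular matrix. Each molecule is a triple helix of alpha chains, which may come from different genes. Fibrillar collagens (types I, III, V and their relatives) assemble into the fibres that give the heart wall its tensile strength and are made there chiefly by fibroblasts. Type IV forms the sheet-like network of basement membranes around cardiomyocytes and capillaries. The remaining types decorate fibrils, form beaded filaments and hexagonal networks, or span cell membranes.

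The deposited values are normalized, so levels have no unit of reads; they summed to 19810148 to 21573127 per library in KO and 19868549 to 23510139 in WT. Of all genes, 13823 reached a value of 10 in at least 3 libraries and were tested; a gene is said to be called where its adjusted p was under 0.05, and log2 differences are of value + 1. Trdn-as itself was not analysed here; Trdn itself stood at 3429, 3459.7 and 5606 in KO hearts 1, 2 and 3, against 5702, 5599.8 and 9104 in WT hearts 1, 2 and 3. The heart label fits the cardiomyocyte markers, with Tnnt2 at 60414.5 or more in every library. Replicate 2 of both genotypes had Y-linked sums of 82.2 (KO) and 54.9 (WT), against 2496 or more in the other libraries, so it reads as female. KO heart 1 also held Scgb1a1, an airway secretory gene, at 518, against at most 2.91 elsewhere, while the lung surfactant gene Sftpc was at 0.842 there. The 4 listed lung markers together summed to 531 in KO heart 1, against at most 5.99 in any other library.

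Of the 44 collagens, 32 passed the filter: 8 fibrillar, 6 basement membrane and 18 other. The 12 that did not pass were all above 0 in at least 1 library. Col11a1, Col2a1 and Col24a1, collagens of cartilage and related fibrils, had mean values of 2.80, 2.61 and 0.322. Col9a1, Col9a2, Col9a3 and Col10a1, which belong to cartilage, and Col19a1, Col6a4 and Col6a5 stayed at 8.85 or less in every library. Col7a1, the anchoring fibril of skin, reached 30.6 in KO heart 2, and Col17a1, a hemidesmosome collagen, reached 33.7 in WT heart 3 and was at 5.52 or less in the other libraries. Of the 32 tested, 28 stood at 10 or more in all 6 libraries; the other 4 (Col8a2, Col22a1, Col26a1 and Col25a1) did so in 3 to 5, so their presence among the tested genes can depend on the group in which they are higher.

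Levels of different genes can be compared only per length, here as value per kilobase of the longest protein-coding transcript. On that scale Col4a1 led with a mean of 849.6 over the 6 libraries (338.9 to 1252), followed by Col4a2 at 561 (256 to 799) and Col3a1 at 488 (194 to 608). In WT heart 3 the order was another, with Col3a1 at 492 above Col4a1 at 463 and Col4a2 at 331. The next in order were Col6a1 (258), Col1a2 (249), Col15a1 (232), Col6a2 (228) and Col1a1 (177), whose ranges over the libraries overlapped one another. Col5a2, Col4a5, Col5a3 and Col5a1 followed between 78.2 and 70.2 per kilobase, again with overlapping ranges.

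**Figure D1:**
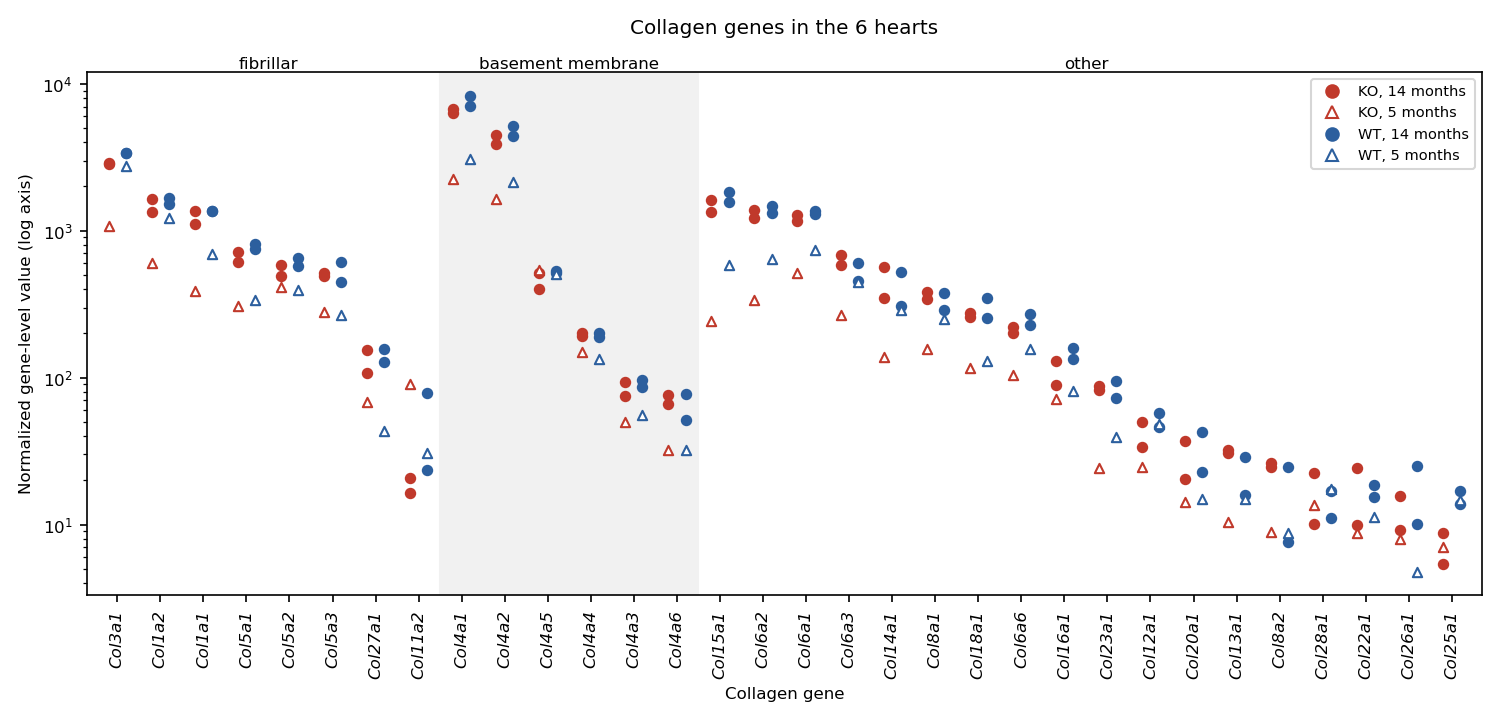
Normalized gene-level values (log axis) of the 32 tested collagen genes, ordered by class and mean level; red marks KO and blue WT, filled circles 14 months (2 hearts per genotype) and open triangles 5 months (1 heart per genotype). For 25 of the 32 genes every 14-month heart lies above both 5-month hearts, and the 14-month KO and WT points of most genes above a value of 100 lie close together.

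By age, 22 of the 32 tested collagens were higher at 14 than at 5 months and 0 were lower. Over all genes tested 17.7% were higher and 16.0% lower by the same rule. The median log2 fold change of the tested collagens was 0.94, against 0.02 over all genes. The 22 comprised 7 of 8 fibrillar, 5 of 6 basement membrane and 10 of 18 other collagens, and each of them stood at 10 or more in all 6 libraries. The values of 25 collagens did not overlap, with all 14-month hearts above both 5-month hearts, and 0 did so in the other direction; over all genes the shares were 25.7% and 25.0%. The test was limma's moderated test over all genes, with genotype as a covariate, on 4 hearts of 14 months and 2 of 5 months. Collagen transcripts were longer and richer in G and C than the rest (median 6084 against 3193 bases and 55.9 against 49.9% GC). With each library's trend over length and GC content removed, 6 collagens were higher and 1 was lower, with a median of 0.42, against 11.2% and 11.0% of all genes. The 6 were Col15a1, Col4a1, Col6a2, Col6a1, Col5a1 and Col4a2, and the lower gene was Col4a5. The count was 13 without the 5-month KO heart and 14 without KO heart 1. Without replicate 2 of both genotypes, the hearts that read as female, 15 were higher and 1 lower, with a median of 0.91. That fit leaves 1 heart per genotype and age and 1 residual degree of freedom. Its counts therefore cannot be weighed like those from all 6 hearts. In bulk tissue, fewer cells of a type and less RNA per cell cannot be told apart.

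**Figure D2:**
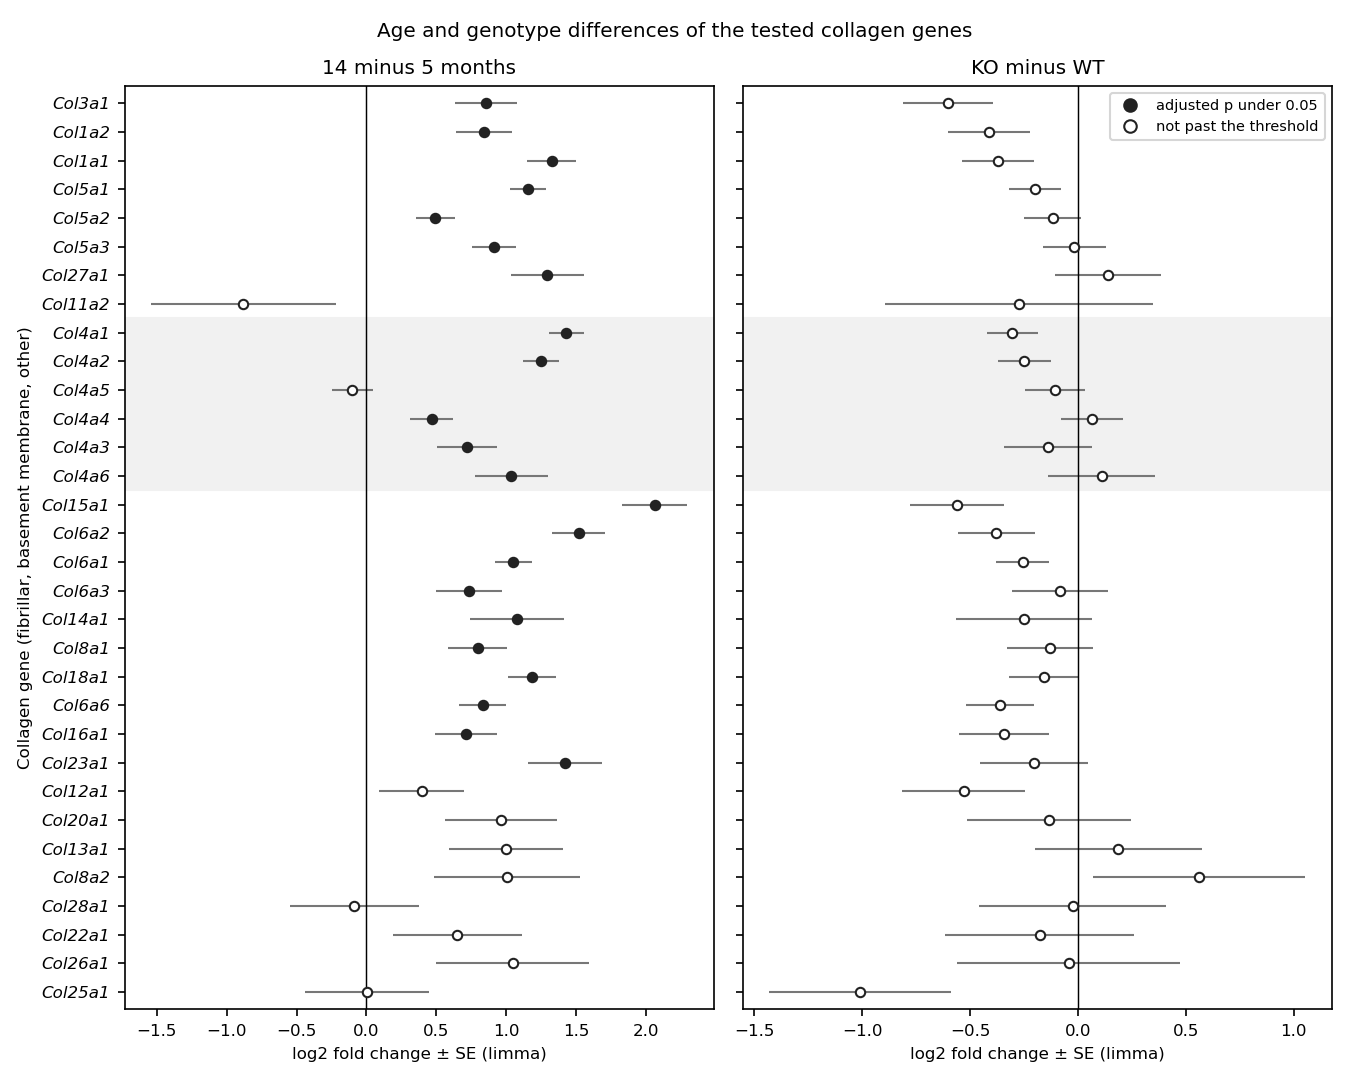
Log2 fold changes (points) with standard errors (bars) of the 32 tested collagen genes for 14 minus 5 months (left) and KO minus WT (right), from limma fits over all genes; the grey band marks the basement membrane class, and filled points passed an adjusted p of 0.05. On the left 22 points are filled, all to the right of 0; on the right none is filled and 27 of 32 lie to the left of 0.

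The major fibrillar chains were all higher in the older hearts. Col1a1, the major chain of type I collagen, had values of 1371 and 1112 in the 14-month KO hearts and 1356 and 1363 in the 14-month WT hearts, against 386 in the 5-month KO and 691 in the 5-month WT heart. Each 14-month heart lay above both 5-month hearts, and the log2 difference was 1.32 ± 0.18 SE (adjusted p = 0.00156, limma), or 2.50-fold (95% interval 1.89 to 3.32). Col1a2, the partner chain, had 1631 and 1332 in the 14-month KO hearts and 1677 and 1527 in the 14-month WT hearts, against 606 in the 5-month KO and 1212 in the 5-month WT heart. The ages again did not overlap, although the 5-month WT heart came within reach of the older KO hearts, with a log2 difference of 0.84 ± 0.20 SE (adjusted p = 0.0152, limma). Col3a1, the chain of type III collagen, the fine-fibre partner of type I in the heart, had 2888 and 2839.8 in the 14-month KO hearts and 3382 and 3365 in the 14-month WT hearts, against 1082 in the 5-month KO and 2739.6 in the 5-month WT heart. Its 14-month values lay close together and its 5-month values far apart, and the log2 difference was 0.85 ± 0.22 SE (adjusted p = 0.0211, limma). That call was lost in 6 of 18 alternatives: without KO heart 1 (0.77, adjusted p = 0.0533), KO heart 2 (0.78, adjusted p = 0.0615) or KO heart 3 (0.30, adjusted p = 0.0534), without limma's trend and robust options (adjusted p = 0.0637), without the genotype term (adjusted p = 0.0593) and after removal of length and GC trends (0.42, adjusted p = 0.251). Without WT heart 3 the difference was 1.40. Removal of those trends also ended the calls of Col1a1 (0.66, adjusted p = 0.0623) and Col1a2 (0.29, adjusted p = 0.387). Col1a2 was also lost without KO heart 3 (0.40, adjusted p = 0.0797) and without the trend and robust options (adjusted p = 0.0507), and stood at 1.28 without WT heart 3.

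Type V chains sit inside type I fibrils and set their diameter. Col5a1 ran from 612 to 815 at 14 months against 309 and 337 at 5 months, a log2 difference of 1.15 ± 0.13 SE (adjusted p = 0.000839, limma). Col5a3 ran from 449.8 to 611 at 14 months against 268 and 279 at 5 months, 0.91 ± 0.15 SE (adjusted p = 0.00390, limma). Col5a2, which lies beside Col3a1 on chromosome 1, had the smallest difference of the called fibrillar genes, with 488 to 649 at 14 months against 397 and 414 at 5 months and 0.49 ± 0.14 SE (adjusted p = 0.0290, limma). In all 3 genes both 5-month hearts lay under every 14-month heart, and with length and GC trends removed Col5a1 stayed called at 0.49, against 0.18 for Col5a3 and 0.14 for Col5a2, not called. Col27a1, a fibrillar chain known from cartilage, had values of 108 and 155 in the 14-month KO hearts and 127 and 155 in the 14-month WT hearts, against 68.3 in the 5-month KO and 43.1 in the 5-month WT heart, a log2 difference of 1.29 ± 0.26 SE (adjusted p = 0.00759, limma); with the trends removed it was 0.57 (adjusted p = 0.115). Col11a2, another cartilage fibril chain, was the one tested fibrillar gene not called. Its values were 16.5, 20.8 and 90.8 in KO hearts 1, 2 and 3, against 23.6, 78.3 and 30.9 in WT hearts 1, 2 and 3, scattered across age and genotype alike (−0.88 ± 0.66 SE, adjusted p = 0.335 for age).

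Col4a1 and Col4a2 encode the chains of the common type IV molecule, and the genes stand head to head on chromosome 8, with annotated starts 21 bases apart on opposite strands (chromosome 8, 11198423 to 11312826, minus strand for Col4a1 and chromosome 8, 11312805 to 11449287, plus strand for Col4a2, mm10). Their start regions are shown because the genes had the highest mean per kilobase of all collagens and their levels kept close to one ratio across the 6 hearts. The windows run from 250 bases before to 50 after the RefSeq start (GRCm38.p6, chr8:11312777-11313076 on the minus strand and chr8:11312555-11312854 on the plus strand, 5′ to 3′); capitals mark the 78 bases that both windows hold, one as the reverse complement of the other.
Col4a1: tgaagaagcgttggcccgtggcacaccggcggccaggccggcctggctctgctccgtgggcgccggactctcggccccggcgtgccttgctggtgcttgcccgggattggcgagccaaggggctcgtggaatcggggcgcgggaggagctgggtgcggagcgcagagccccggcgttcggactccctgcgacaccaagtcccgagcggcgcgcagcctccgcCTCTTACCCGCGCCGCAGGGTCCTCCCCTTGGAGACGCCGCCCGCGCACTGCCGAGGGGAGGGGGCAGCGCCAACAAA
Col4a2: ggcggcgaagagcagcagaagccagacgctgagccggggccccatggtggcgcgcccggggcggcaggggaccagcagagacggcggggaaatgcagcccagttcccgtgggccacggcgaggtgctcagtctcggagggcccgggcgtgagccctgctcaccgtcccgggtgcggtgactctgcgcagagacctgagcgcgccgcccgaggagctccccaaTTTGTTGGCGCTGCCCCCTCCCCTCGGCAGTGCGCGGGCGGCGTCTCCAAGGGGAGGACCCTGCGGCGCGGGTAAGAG
The windows are 74.0% (Col4a1) and 73.7% (Col4a2) G and C. On either strand, each holds the letters GGGCGG (found in 35.7% of all 32851 RefSeq promoter windows) and CCAAT (37.4%), and neither holds TATAAA (13.6%). Of the 35 collagen genes with a window in that table, 22 held GGGCGG, 13 CCAAT and 5 TATAAA.

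Col4a1 had values of 6776 and 6287 in the 14-month KO hearts and 8284 and 7067 in the 14-month WT hearts, against 2242 in the 5-month KO and 3066 in the 5-month WT heart. The 2 ages stood well apart, with a log2 difference of 1.43 ± 0.13 SE (adjusted p = 0.000403, limma), or 2.70-fold (95% interval 2.20 to 3.30). Col4a2 had 4499 and 3877 in the 14-month KO hearts and 5151 and 4399 in the 14-month WT hearts, against 1650.5 in the 5-month KO and 2133 in the 5-month WT heart, again well apart, and changed by 1.25 ± 0.13 SE (adjusted p = 0.000708, limma). Both calls held in each of the 18 alternatives computed for them. After removal of length and GC trends the log2 differences were 0.78 and 0.53, still higher at 14 months. Per kilobase, the ratio of Col4a1 to Col4a2 was 1.47, 1.58 and 1.32 in KO hearts 1, 2 and 3 and 1.57, 1.57 and 1.40 in WT hearts 1, 2 and 3. The highest ratio was 1.19 times the lowest, while Col4a1 itself varied 3.70-fold between libraries. Within that narrow range the ratio was lowest in the 5-month heart of each genotype, below every 14-month heart.

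The remaining type IV chains form the networks of kidney glomeruli, lung and some smooth muscle, and they were far lower per kilobase in these hearts. Col4a3 and Col4a4 also stand head to head, on chromosome 1 with starts 72 bases apart. Col4a3 ran from 74.4 to 95.9 at 14 months against 49.7 and 55.4 at 5 months and Col4a4 from 188 to 202 at 14 months against 133 and 149.9 at 5 months, log2 differences of 0.72 ± 0.21 SE (adjusted p = 0.0345, limma) and 0.47 ± 0.15 SE (adjusted p = 0.0477, limma). Their per-kilobase ratio varied 1.54-fold over the libraries. Col4a6 and Col4a5 stand head to head on the X chromosome with starts 1309 bases apart, and here the partners parted. Col4a6 ran from 51.6 to 76.8 at 14 months against 32.0 and 32.2 at 5 months, a log2 difference of 1.04 ± 0.26 SE (adjusted p = 0.0191, limma). Col4a5 was the one type IV gene not called, with 403 and 513 in the 14-month KO hearts and 529.9 and 519 in the 14-month WT hearts, against 540.3 in the 5-month KO and 508 in the 5-month WT heart; the ages overlapped, and the log2 difference was −0.10 ± 0.15 SE (adjusted p = 0.628, limma), with a 95% interval of −0.44 to 0.24. With length and GC trends removed Col4a5 was lower at 14 months (−0.53, adjusted p = 0.0259). The per-kilobase ratio of Col4a6 to Col4a5 was 0.162, 0.146 and 0.0582 in KO hearts 1, 2 and 3, against 0.142, 0.0978 and 0.0623 in WT hearts 1, 2 and 3, lowest in the 5-month heart of each genotype.

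**Figure D3:**
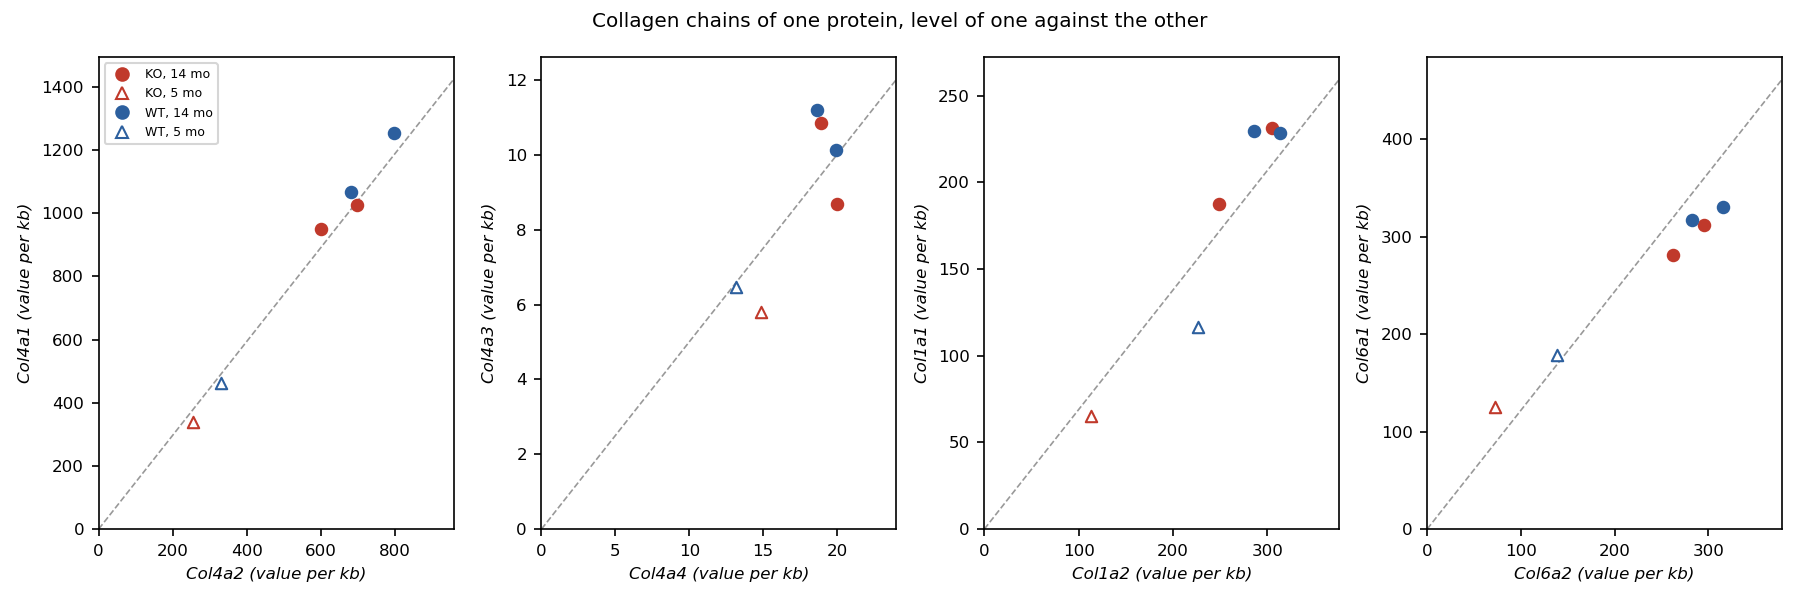
Value per kilobase of one collagen chain against that of its partner in the 6 libraries, for Col4a1 and Col4a2, Col4a3 and Col4a4, Col1a1 and Col1a2, and Col6a1 and Col6a2; red marks KO, blue WT, circles 14 months and triangles 5 months, and the dashed line is the mean ratio. The Col4a1 and Col4a2 points lie near one line (ratios 1.32 to 1.58), while the ratios of Col1a1 and Col1a2 (0.515 to 0.805) and of Col6a1 and Col6a2 (1.05 to 1.72) spread more widely.

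Among the other collagens the largest age difference was that of Col15a1, a basement membrane zone collagen of vessels and muscle that links it to the interstitial matrix. Its values were 1623 and 1338 in the 14-month KO hearts and 1570.2 and 1830.0 in the 14-month WT hearts, against 243 in the 5-month KO and 588 in the 5-month WT heart. Every older heart lay far above both younger ones, with a log2 difference of 2.06 ± 0.23 SE (adjusted p = 0.000849, limma), or 4.18-fold (95% interval 2.89 to 6.04), and it stayed called in all 18 alternatives. Col18a1, its close relative and the source of endostatin, ran from 254 to 346 at 14 months against 116 and 130.4 at 5 months, 1.18 ± 0.17 SE (adjusted p = 0.00207, limma).

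The chains of type VI collagen, which forms beaded filaments at the surface of muscle cells, were all higher at 14 months save the scarcely measured Col6a4 and Col6a5. Col6a2 had 1220.5 and 1375 in the 14-month KO hearts and 1316 and 1468 in the 14-month WT hearts, against 338 in the 5-month KO and 646 in the 5-month WT heart, a log2 difference of 1.52 ± 0.19 SE (adjusted p = 0.00120, limma). Col6a1, its neighbour on chromosome 10, had 1155 and 1282 in the 14-month KO hearts and 1302 and 1357 in the 14-month WT hearts, against 513 in the 5-month KO and 734 in the 5-month WT heart, 1.05 ± 0.13 SE (adjusted p = 0.00127, limma). No older heart came near the younger ones in either gene. Col6a3, the longest of the chains, ran from 456 to 679.6 at 14 months against 265 and 450.2 at 5 months (0.73 ± 0.24 SE, adjusted p = 0.0455), where the lowest 14-month heart and the 5-month WT heart nearly met. Col6a6 ran from 199.8 to 269 at 14 months against 104 and 157 at 5 months (0.83 ± 0.17 SE, adjusted p = 0.00770).

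Fibril-associated, network-forming and membrane collagens were called in part. Of the fibril-associated chains Col14a1, which is found on type I fibrils, ran from 306 to 567 at 14 months against 138 and 287 at 5 months (1.08 ± 0.33 SE, adjusted p = 0.0401), and Col16a1 from 89.5 to 158 at 14 months against 71.6 and 81.2 at 5 months (0.71 ± 0.22 SE, adjusted p = 0.0401). Col12a1, Col20a1 and Col22a1 were not called, at 0.40 ± 0.30 SE, 0.96 ± 0.40 SE and 0.65 ± 0.46 SE. Col8a1, a network collagen of vessel walls, ran from 288 to 385 at 14 months against 158 and 251 at 5 months (0.79 ± 0.21 SE, adjusted p = 0.0233), and its partner Col8a2 was not called at 1.01 ± 0.52 SE. Col23a1, a transmembrane collagen, had values of 82.2 and 88.3 in the 14-month KO hearts and 95.1 and 72.4 in the 14-month WT hearts, against 24.1 in the 5-month KO and 39.5 in the 5-month WT heart, a log2 difference of 1.42 ± 0.27 SE (adjusted p = 0.00576, limma); without length and GC trends it was 0.88 (adjusted p = 0.0613). The other transmembrane chains Col13a1 and Col25a1 and the minor Col26a1 and Col28a1 were not called, with log2 differences of 1.00, 0.01, 1.05 and −0.09.

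Between the genotypes no collagen passed the threshold: 0 of 32 tested, where 0.00% of all genes did (limma with age as a covariate; limma-voom also called 0). At an unadjusted p under 0.05 stood 4 collagens, all lower in KO: Col3a1, Col15a1, Col4a1 and Col25a1; over all genes it was 841 (6.08%). With length and GC trends removed 12 collagens stood there, against 5.94% of all genes, with a collagen median of −0.31 and still 0 called; without limma's trend and robust options it was 1. In direction, 27 of 32 lay below WT, with a median log2 fold change of −0.19, against 7455 of 13823 genes and a median of −0.02. Over the same hearts the fibroblast markers lay below WT in 12 of 12 (median −0.24) and the cardiomyocyte markers in 10 of 10 (−0.29). The macrophage markers did so in 7 of 7 (−0.28) and the valve and cartilage-like markers in 4 of 4 (−0.41). Also mostly below were endothelial (8 of 10, −0.08), smooth muscle and pericyte (7 of 9, −0.08) and activated fibroblast markers (5 of 7, −0.27). Mostly above WT were adipocyte (5 of 6, 0.71), epicardial (4 of 5, 0.30) and Schwann cell markers (4 of 6, 0.07). The fibroblast markers summed to 36470, 33113 and 19039 in KO hearts 1, 2 and 3, against 33572, 37088 and 32221 in WT hearts 1, 2 and 3. The sums overlapped at 14 months. In replicates 1, 2 and 3, 5, 11 and 12 of the 12 fibroblast markers lay below WT. For the 7 macrophage markers it was 2, 6 and 7, and for the 10 cardiomyocyte markers 8, 5 and 10. The part of these cell types in the collagen differences was not tested. In each same-number pair KO was below WT for 11 collagens, against 14.6% of all genes. All KO hearts lay below all WT hearts for 1 collagen, Col25a1, and above them for 0; the shares over all genes were 2.89% and 2.88%. In the 14-month hearts alone 23 of 32 lay below WT, with a median of −0.14, 0 called and 1 at an unadjusted p under 0.05, where 0.101% of all genes were called and 6.21% stood at an unadjusted p under 0.05.

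Col3a1 had the smallest p of the collagens. Its values were 2888, 2839.8 and 1082 in KO hearts 1, 2 and 3, against 3382, 3365 and 2739.6 in WT hearts 1, 2 and 3. At 14 months the 2 KO hearts lay just below the 2 WT hearts, and at 5 months the KO heart lay far below its WT counterpart. As a share of the same-number WT heart KO stood at 85.4, 84.4 and 39.5%, and the log2 difference was −0.60 ± 0.21 SE (adjusted p = 0.745, limma), with a 95% interval of −1.09 to −0.12. Over the 14-month hearts alone it was −0.24. Col15a1 stood at 103, 73.1 and 41.3% of WT in replicates 1, 2 and 3, a log2 difference of −0.56 ± 0.22 SE (adjusted p = 0.745, limma). Its genotypes overlapped at 14 months. Col4a1 stood at 81.8, 89.0 and 73.1% of WT, at −0.30 ± 0.12 SE (adjusted p = 0.745, limma) with an interval of −0.58 to −0.03, and Col4a2 at 87.4, 88.1 and 77.4% of WT, −0.25 ± 0.12 SE (adjusted p = 0.745, limma).

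The type I chains stood near WT at 14 months and lower at 5 months. Col1a1 was at 101, 81.6 and 55.9% of WT in replicates 1, 2 and 3 (−0.37 ± 0.17 SE, adjusted p = 0.745) and Col1a2 at 97.2, 87.2 and 50.01% (−0.41 ± 0.19 SE, adjusted p = 0.745). Type VI followed the same order, with Col6a2 at 92.8, 93.6 and 52.4% (−0.38 ± 0.18 SE, adjusted p = 0.745) and Col6a1 at 88.7, 94.5 and 69.9% (−0.26 ± 0.13 SE, adjusted p = 0.745). Col5a3 lay nearest to WT, at −0.02 ± 0.15 SE with a 95% interval of −0.35 to 0.32. Col4a5 lay at −0.11 ± 0.14 SE, Col27a1 at 0.14 ± 0.24 SE and Col23a1 at −0.21 ± 0.25 SE; each of these changed sign under at least 1 alternative. Col25a1, a collagen known from neurons, was low throughout, at 8.72, 5.42 and 7.06 in KO hearts 1, 2 and 3, against 13.7, 16.8 and 14.7 in WT hearts 1, 2 and 3. These groups did not overlap, with −1.01 ± 0.42 SE (adjusted p = 0.745, limma), but the gene passed the filter only through its WT values, so the filter itself favours a difference.

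**Figure D4:**
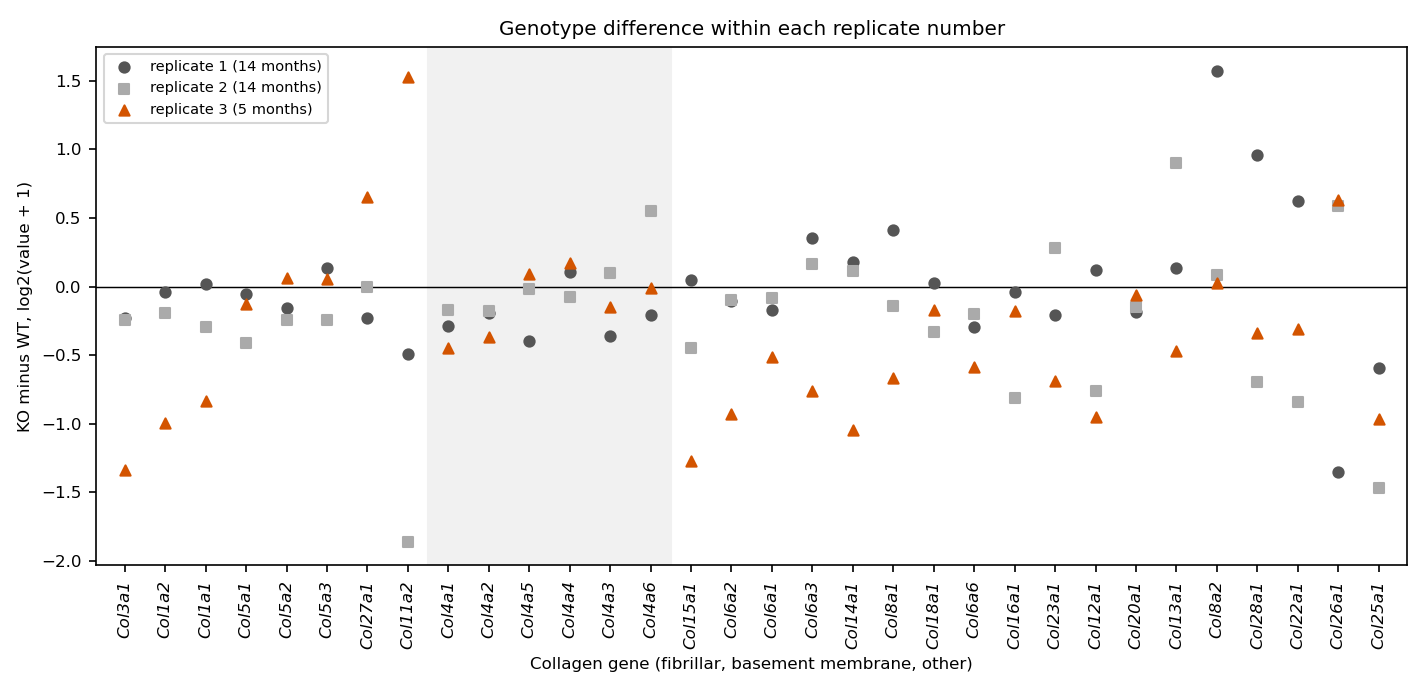
KO minus WT difference of log2(value + 1) for the 32 tested collagen genes within each replicate number; circles and squares are the 14-month pairs (replicates 1 and 2), orange triangles the 5-month pair (replicate 3), and the grey band marks the basement membrane class. The triangles of Col3a1 (−1.34), Col15a1 (−1.27), Col14a1 (−1.05) and Col1a2 (−0.999) lie far below 0, while those of Col5a1 (−0.12), Col5a3 (0.06), Col5a2 (0.06) and Col4a5 (0.09) lie near it.

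For several collagens the genotypes lay further apart at 5 months, where each is 1 heart. The 5-month pair had a median KO minus WT difference of −0.35 over the 32 collagens, with 24 of 32 below 0, against −0.06 and 54.1% over all genes. Replicates 1 and 2 had medians of −0.08 and −0.18 (19 and 24 of 32 below), against −0.01 and 0.00 over all genes. By class, the 5-month median was −0.55 for the other collagens, −0.08 for basement membrane and −0.03 for fibrillar chains, with Col5a1, Col5a2 and Col5a3 near 0 and Col27a1 and Col11a2 above it. Summed over all 44 collagens, the KO value was 90.0, 87.7 and 65.7% of WT in replicates 1, 2 and 3.

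The genotype by age term asks whether the KO minus WT difference is another at 14 than at 5 months. It was called for 1 of 32 collagens, Col3a1, where 2.08% of all genes were called. The Col3a1 difference was 1.10 log2 higher at 14 months (± 0.14 SE, adjusted p = 0.0293 by limma). This fit has 2 residual degrees of freedom, and the call did not hold in 6 of 14 alternatives (adjusted p from 0.0270 to 0.177). Next by p, none called, were Col15a1 at 1.07 ± 0.23 SE (adjusted p = 0.0637, limma), Col6a2 at 0.83 ± 0.19 SE (adjusted p = 0.0749, limma) and Col1a2 at 0.88 ± 0.21 SE (adjusted p = 0.0779, limma). Beside them, the cardiomyocyte markers summed to 727289 in the 5-month KO and 1264080 in the 5-month WT heart, with all 10 tested markers lower in KO. Their 14-month sums ran from 657045 to 742855, so it was the 5-month WT heart that stood apart. The 12 fibroblast markers summed to 19039 in the 5-month KO and 32221 in the 5-month WT heart, with all 12 lower in KO. Their 14-month sums ran from 33113 to 37088, so here the 5-month KO heart stood apart. By the genotype by age term the collagen median was 0.21 (21 of 32 above 0), against 0.05 over all genes (7383 of 13823). It was 0.53 for cardiomyocyte markers (10 of 10) and 0.48 for fibroblast markers (11 of 12). Adipocyte markers had 2.49 (6 of 6), endothelial markers 0.16 (6 of 10) and epicardial markers −1.09 (1 of 5). The part of these cell types in the collagen differences was not tested.

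The start regions of Col3a1 and Col1a2 are shown as those of the fibrillar chains with the lowest KO share of WT at 5 months. The windows are RefSeq's on GRCm38.p6 (chr1:45311288-45311587 and chr6:4505368-4505667, both on the plus strand, 5′ to 3′), and capitals mark the same 3 motifs on either strand; no matches overlap.
Col3a1: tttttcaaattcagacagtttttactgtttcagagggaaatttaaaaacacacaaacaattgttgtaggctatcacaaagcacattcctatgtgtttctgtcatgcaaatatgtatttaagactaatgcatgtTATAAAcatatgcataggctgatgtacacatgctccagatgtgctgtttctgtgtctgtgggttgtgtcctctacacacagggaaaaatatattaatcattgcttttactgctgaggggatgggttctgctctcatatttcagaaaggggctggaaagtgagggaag
Col1a2: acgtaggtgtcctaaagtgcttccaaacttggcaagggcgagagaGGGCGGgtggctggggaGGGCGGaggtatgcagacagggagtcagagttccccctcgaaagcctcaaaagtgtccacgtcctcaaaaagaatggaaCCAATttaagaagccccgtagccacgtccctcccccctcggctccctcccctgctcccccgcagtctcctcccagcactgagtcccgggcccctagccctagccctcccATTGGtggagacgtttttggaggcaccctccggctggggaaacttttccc
The Col3a1 window is 37.7% G and C and holds TATAAA once, 117 bases before the start. The Col1a2 window is 61.0% G and C, with GGGCGG and CCAAT at 2 places each. The 2 windows thus share none of these 3 motifs.

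The ratios of other partner chains were less even across the hearts. Per kilobase, Col1a1 over Col1a2 was 0.759, 0.753 and 0.575 in KO hearts 1, 2 and 3, against 0.729, 0.805 and 0.515 in WT hearts 1, 2 and 3, lowest at 5 months in both genotypes. Col3a1 over Col1a1 was 2.24, 2.72 and 2.98 in KO hearts, against 2.66, 2.63 and 4.22 in WT hearts, highest in the 5-month WT heart. Col6a1 over Col6a2 was 1.07, 1.06 and 1.72 in KO hearts, against 1.12, 1.05 and 1.29 in WT hearts. Ratios between genes rest on 2 hearts of 5 months and were given no test.

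The gene lists that follow were read only without removal of length and GC trends, a step that lowered the collagen counts by age. Genes that act in the making, maturation or secretion of collagen gave a mixed count. Of 30 tested, 9 were higher and 1 lower at 14 months, where 17.7% of all genes were higher and 16.0% lower, with a median log2 fold change of 0.22. Creb3l1, a membrane-bound transcription factor that drives collagen genes, was the most changed, with 167 and 159.9 in the 14-month KO hearts and 142 and 139.6 in the 14-month WT hearts, against 20.7 in the 5-month KO and 42.9 in the 5-month WT heart (2.30 ± 0.29 SE, adjusted p = 0.00120). The lysyl hydroxylases Plod1 (0.68 ± 0.11 SE, adjusted p = 0.00358) and Plod3 (0.65 ± 0.13 SE, adjusted p = 0.00828) and the procollagen C-proteinase enhancer Pcolce (0.86 ± 0.17 SE, adjusted p = 0.00733) were higher too. Between the genotypes 0 of 30 were called; the prolyl hydroxylase subunit P4ha1 stood lowest in p at −0.41 ± 0.12 SE (adjusted p = 0.745, limma), with 934, 807 and 874 in KO hearts 1, 2 and 3, against 1265, 1068 and 1152 in WT hearts 1, 2 and 3. Every KO heart there lay below every WT heart. Fkbp10, a collagen chaperone, stood at 0.33 ± 0.14 SE, P4ha2 at −0.38 ± 0.17 SE and Ppib, the cyclophilin of the prolyl 3-hydroxylase complex, at −0.40 ± 0.20 SE. The genotype by age term, whose 5-month side is 1 heart per genotype, was called for 1 of the 30, against 2.08% of all genes. That gene was Ppib (1.00 ± 0.19 SE, adjusted p = 0.0478 by limma), whose value in WT heart 3 (1301) was the highest of the 6.

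Cross-linking enzymes were higher at 14 months in 3 of 6 tested, against 17.7% of all genes, namely Loxl1 (1.09 ± 0.23 SE, adjusted p = 0.00915), Loxl2 (1.06 ± 0.13 SE, adjusted p = 0.00108) and the transglutaminase Tgm2 (0.63 ± 0.12 SE, adjusted p = 0.00572), with 0 lower; Lox itself was not called (0.41 ± 0.35 SE). Loxl2 had 398, 383 and 196 in KO hearts 1, 2 and 3, against 508, 514 and 234 in WT hearts 1, 2 and 3, below WT in each pair and not called (−0.34 ± 0.12 SE, adjusted p = 0.745). Tgm2 stood at −0.25 ± 0.11 SE, Loxl1 at −0.26 ± 0.22 SE and Loxl3 at 0.18 ± 0.21 SE between the genotypes. Loxl1 was the 1 of the 6 called for the genotype by age term (1.09 ± 0.20 SE, adjusted p = 0.0478 by limma), against 2.08% of all genes. That term has 1 heart per genotype at 5 months.

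Genes of collagen breakdown were higher at 14 months in 7 of 15 tested (17.7% of all genes) and lower in 1 (16.0% of all genes), Timp4, an inhibitor of matrix metalloproteinases of the heart, which had 419 and 269 in the 14-month KO hearts and 510.2 and 562 in the 14-month WT hearts, against 1030.3 in the 5-month KO and 1599 in the 5-month WT heart (−1.60 ± 0.18 SE, adjusted p = 0.000867). Mmp14, the membrane-bound collagenase (1.09 ± 0.16 SE, adjusted p = 0.00217), Timp2 (1.17 ± 0.17 SE, adjusted p = 0.00226) and Mmp9 (1.88 ± 0.39 SE, adjusted p = 0.00865) were among the higher. Between the genotypes 0 were called, with Timp4 at −0.66 ± 0.17 SE (adjusted p = 0.745, limma), Timp3 at −0.40 ± 0.13 SE, Fap at 0.45 ± 0.22 SE and the gelatinase Mmp2 at −0.25 ± 0.15 SE. The genotype by age term, with 1 heart per genotype at 5 months, was called for 1 of the 15, against 2.08% of all genes. That gene was the lysosomal protease Ctsb (0.91 ± 0.14 SE, adjusted p = 0.0320 by limma).

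Of the receptors for collagen, 6 of 11 tested were higher at 14 months and 1 was lower, against 17.7% and 16.0% of all genes. Adgrg1, an adhesion receptor that binds type III collagen (0.94 ± 0.16 SE, adjusted p = 0.00411), the integrin Itga11 (1.47 ± 0.31 SE, adjusted p = 0.00896) and the endocytic receptor Mrc2 (0.66 ± 0.14 SE, adjusted p = 0.00930) were higher, and Itgb1, the beta chain of all collagen-binding integrins, was lower (−0.57 ± 0.12 SE, adjusted p = 0.0101). Between the genotypes 0 were called; Ddr1 stood at 0.43 ± 0.20 SE, Lair1 at 0.39 ± 0.24 SE, Adgrg6 at −0.49 ± 0.29 SE and Ddr2, the discoidin domain receptor of fibroblasts, at 0.27 ± 0.19 SE.

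Proteins that bind fibrils were higher at 14 months in 8 of 14 tested and lower in 1, against 17.7% and 16.0% of all genes. The small leucine-rich proteoglycans Prelp (2.31 ± 0.23 SE, adjusted p = 0.000607), Bgn (1.68 ± 0.19 SE, adjusted p = 0.000837) and Fmod (1.75 ± 0.22 SE, adjusted p = 0.00120) and fibronectin, Fn1 (0.89 ± 0.12 SE, adjusted p = 0.00170), led by p. In KO relative to WT 12 of 14 lay below, against 7455 of 13823 over all genes, with 0 called. In replicates 1, 2 and 3, the last being the 5-month pair, it was 7, 11 and 13 of 14. Lowest in p were Aspn (−0.40 ± 0.12 SE), Sparc (−0.50 ± 0.16 SE), Comp (−0.66 ± 0.23 SE) and Fn1 (−0.28 ± 0.11 SE). Basement membrane partners of type IV collagen were higher in 6 of 13 tested and lower in 0, with the same shares over all genes, among them nidogen Nid1 (1.52 ± 0.16 SE, adjusted p = 0.000712), perlecan Hspg2 (1.02 ± 0.13 SE, adjusted p = 0.00120) and the laminin chains Lamb2 (0.79 ± 0.14 SE, adjusted p = 0.00430) and Lamb1 (0.95 ± 0.19 SE, adjusted p = 0.00666). Between the genotypes 0 of these 13 were called, with Sparc as above, the peroxidase Pxdn that cross-links type IV collagen at 0.30 ± 0.11 SE, Nid1 at −0.36 ± 0.15 SE and Lamc1 at −0.51 ± 0.23 SE. The genotype by age term, whose 5-month side is 1 heart per genotype, was called for 4 of the 13, against 2.08% of all genes, in both directions: Lama4 (1.13 ± 0.16 SE, adjusted p = 0.0301), Lamc1 (1.23 ± 0.17 SE, adjusted p = 0.0293), Lama5 (−1.47 ± 0.17 SE, adjusted p = 0.0276) and Nid2 (−1.35 ± 0.22 SE, adjusted p = 0.0362).

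Growth factor genes of the transforming growth factor beta and platelet-derived growth factor pathways, which drive collagen synthesis in fibroblasts, were higher at 14 months in 11 of 21 tested and lower in 0, against 17.7% and 16.0% of all genes. They took in Ltbp4 (1.79 ± 0.14 SE, adjusted p = 0.000299), the ligand Tgfb1 (1.31 ± 0.15 SE, adjusted p = 0.000889), the receptor Pdgfrb (1.00 ± 0.13 SE, adjusted p = 0.00133) and Ccn1 (1.25 ± 0.16 SE, adjusted p = 0.00140). Between the genotypes 0 of 21 were called and the median was −0.01, with Smad3 at 0.31 ± 0.13 SE, Ccn2 at −0.46 ± 0.21 SE and Smad7 at −0.29 ± 0.15 SE. Of the 21, 1 was called for the genotype by age term, against 2.08% of all genes. It was Ltbp2 (2.64 ± 0.38 SE, adjusted p = 0.0304 by limma), at 25.5 in the single 5-month KO and 112 in the single 5-month WT heart.

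**Figure D5:**
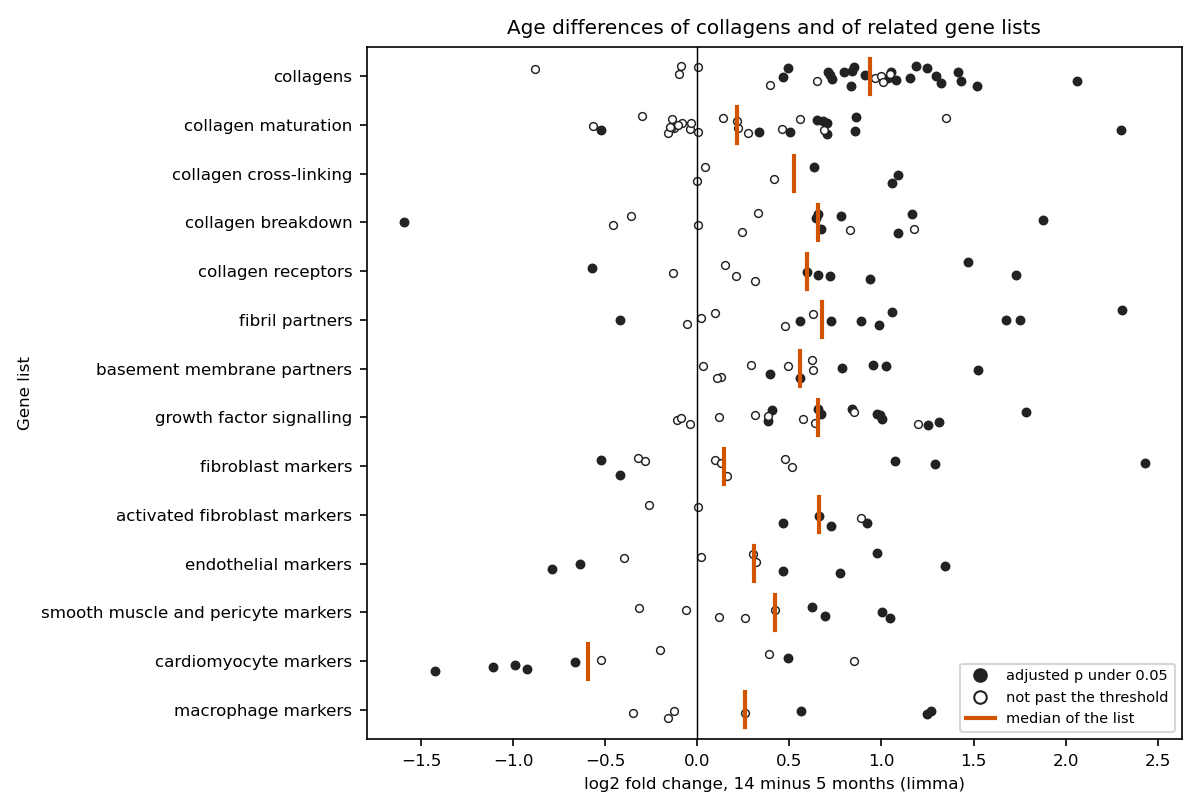
Log2 fold changes for 14 minus 5 months of the tested collagens and of the tested members of related gene lists, 1 point per gene (filled where the limma adjusted p is under 0.05), with the list median as an orange bar. The collagen median (0.94) lies right of those of fibroblast (0.14), endothelial (0.31) and cardiomyocyte markers (−0.59). Epicardial (1.4997, 5 genes) and valve and cartilage-like markers (1.27, 4 genes), which are not drawn, had higher medians. With length and GC trends removed, also not drawn, the collagen median is 0.42. The other lists were not read with those trends removed, so 0.42 cannot be set against their medians.

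Markers of the cells that make collagen moved with age to a different extent, where 17.7% of all genes were higher and 16.0% lower. Of 12 fibroblast markers, 3 were higher at 14 months, Vcan (1.29 ± 0.13 SE, adjusted p = 0.000568), Cd248 (2.43 ± 0.33 SE, adjusted p = 0.00176) and Gsn (1.08 ± 0.26 SE, adjusted p = 0.0164), and 2 were lower, among them Mfap5 (−0.53 ± 0.16 SE, adjusted p = 0.0382). The list's median was 0.14, and its summed level ran from 33113 to 37088 at 14 months, against 19039 and 32221 at 5 months. Activated fibroblast markers were higher in 4 of 7 tested, Cilp (0.92 ± 0.20 SE, adjusted p = 0.0101), Meox1 (0.66 ± 0.15 SE, adjusted p = 0.0125), Postn (0.47 ± 0.14 SE, adjusted p = 0.0392) and Comp (0.73 ± 0.24 SE, adjusted p = 0.0495), at a median of 0.66. Smooth muscle and pericyte markers were higher in 4 of 9, with Notch3 (1.04), Abcc9 (0.69) and Cspg4 (0.62) beside Pdgfrb. Endothelial markers were higher in 4 of 10 and lower in 2, with Cdh5 (1.35), Kdr (0.97) and Emcn (0.77) higher and Egfl7 (−0.79) lower. Their summed level ran from 20031 to 25198 at 14 months, against 21926 and 23231 at 5 months. The part of these cells in the collagen differences was not tested.

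Of the other cell types, again against 17.7% higher and 16.0% lower over all genes, cardiomyocyte markers were lower at 14 months in 5 of 10, among them Tnnt2 (−0.99), Tnni3 (−1.11), Nppa (−1.42) and Myl2 (−0.93), and higher in 1. Macrophage markers were higher in 3 of 7, Csf1r (1.27), Cd68 (1.25) and Lyve1 (0.56). Epicardial markers were higher in 3 of 5, Wt1 (1.4997), Upk3b (1.72) and Msln (1.63), and valve and cartilage-like markers in 1 of 4, Chad (2.43). Schwann cell and adipocyte markers had 0 of 6 called each. Adipocyte markers summed to 1154 and 1841 in the 14-month KO hearts and 409 and 382 in the 14-month WT hearts. At 5 months they summed to 372 in the KO and 771 in the WT heart. None of the 4 listed lung markers was tested. Between the genotypes no member of these lists was called. The smallest p values were those of Vwf (−0.66 ± 0.19 SE) among endothelial, Lyve1 (−0.48 ± 0.13 SE) among macrophage, Wt1 (−0.72 ± 0.26 SE) among epicardial and Notch3 (0.44 ± 0.16 SE) among smooth muscle markers. Wt1 and Notch3 went against their lists. Of the tested epicardial markers 4 lay above WT and 1 below (median 0.30). Of the smooth muscle and pericyte markers 2 lay above WT and 7 below (median −0.08). Fibroblast markers were led by Dpt (−0.28 ± 0.13 SE), cardiomyocyte markers by Nppa (−0.47 ± 0.24 SE) and activated fibroblast markers by Comp, given above, and Cilp (−0.51 ± 0.19 SE).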

How the data were processed

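The submitters' processing notes name Salmon 1.5.2 and mm10; other settings are not stated. The deposited values are a normalized gene-level signal, not counts. Read depth is unknown, so no counting error is given. 108 broken lines were left out, and 20122 identifiers matched GENCODE M21 (GRCm38). No library repeated another (5.59% or fewer genes had values within 1%).

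Genes at 10 or more in at least 3 libraries were tested as log2(value + 1) with limma 3.58.1 in R 4.3.3 (trend and robust options), with Benjamini-Hochberg adjustment over all 13823 and a threshold of 0.05; fold changes are on that scale. The fits were KO against WT with an age term (n = 3 each), 14 against 5 months with a genotype term (n = 4 and 2), and the interaction. The method was tested on simulated data. The labels name no litters, so p-values measure the spread between these hearts. Deviations of same-number libraries correlated at 0.390, 0.383 and 0.617; the number follows age, and within 14 months replicate 1 gave 0.0147.

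The collagens, classes and lists were chosen with earlier results of these data known. The rule gave values in every library for the 3 highest members of each class, the 3 of smallest p by genotype, those called by genotype and up to 6 of largest change by age, and named up to 4 genes of smallest p per list, of which 1 is not reported here; other names and the genotype by age calls were chosen after their values were seen. Alternatives changed the pseudocount, filter, scaling, variance model, covariates and libraries. Removal of length and GC trends by loess, a filter on the mean, and the genotype fit without replicate 2 were chosen after seeing the data.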

Additional observations from a re-analysis of the deposited data

Results flagged for a closer look

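Of 32 tested collagens, 4 had 1 of the 4 hearts of 14 months far from the other 3, where chance gives about 1 in 20: Col4a5 in KO heart 1 (402.7), Col1a1 in KO heart 2 (1112), Col11a2 in WT heart 2 (78.3) and Col8a2 in WT heart 1 (7.57). The KO minus WT difference of Col3a1 was 1.10 log2 higher at 14 than at 5 months by the genotype by age term (adjusted p = 0.0293 by limma), with differences of −0.23, −0.24 and −1.34 in replicates 1, 2 and 3.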

How the results depend on the processing

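Without length and GC trends 3070 genes and 7 collagens were called by age and 65 genes by the interaction; the cause was not tested. Replicate 2 left out in both genotypes gave 39 genes and 0 collagens by genotype, and 3011 genes and 16 collagens (15 higher, 1 lower) by age. Those fits leave 1 heart per genotype and age and 1 residual degree of freedom, so their counts are weak. The 14-month hearts alone gave 14 genes by genotype. With the replicate block the genotype counts stayed 0 and 0, and the block changed no call; ages cannot be paired, since a number belongs to 1 age. Leaving out each library gave 0 to 5 genes and 0 to 0 collagens by genotype, 3246 to 4533 genes and 13 to 18 collagens by age, and 13 to 234 genes and 0 to 2 collagens by the interaction. The interaction could not be fitted without either 5-month heart. It called 287 genes and 1 collagen as reported, 4 genes and 0 collagens with no filter, 12 and 0 with quantile normalization, 7 and 0 with limma without trend and robust options, and 175 and 0 with limma-voom, where the median of all genes was −0.24, against 0.05 as reported.

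By genotype, leaving out each library gave Col4a5 −0.21 to 0.020, Col27a1 −0.12 to 0.36 and Col23a1 −0.39 to 0.038, so that each changed sign (Col4a5 without KO replicate 1, the other two without either 5-month heart). At 14 months alone Col27a1 stood at −0.12 and Col23a1 at 0.038, and without length and GC trends Col27a1 stood at −0.0091. By age Col4a5 ran from −0.25 to 0.046 over left-out libraries, above 0 without KO replicate 3. For the 11 collagens followed through all alternatives, 212 of 220 genotype values and 184 of 198 age values kept direction and side of the threshold; 12 age values lost the call and 1 gained it.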
